A study of Zea mays with 12 samples.

Results

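Glutamine, asparagine and glutamate are the first amino acids into which a plant puts inorganic nitrogen, and 6 maize genes for the enzymes that handle them were followed here in giant cells, the swollen feeding cells that root-knot nematodes induce in roots. The genes were the glutamine synthetase genes gln2, gln3, GLN6 and gln1, the asparagine synthetase gene AS and the glutamate dehydrogenase gene gdh1. They were taken by name from the platform's probe annotation, with symbols and synonyms from RefSeq, and are measured by 7 of the 17621 probe sets that are not manufacturer's controls: 2 for AS and 1 for each of the others. All 6 are among 1108 genes that the annotation names. The genes were chosen by their signals in giant against control cells on these arrays, so their differences between the cell types are given as a description without p-values. Tests are given for differences between days, which the choice did not use.

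Giant cells and control cells, each collected at 14 and at 21 days, made up 4 groups of 3 arrays called biological replicates, 12 in all. Every plant carried the same treatment: maize seedlings of 2 weeks, of a cross between A188 and B73 by the labels, received 1000 juveniles (stage 2) of Meloidogyne incognita, and the days count from that inoculation. Both cell types came from infested plants, by laser capture: about 40 to 60 giant cells (an area near 5000000 square micrometres) per sample from infested parts, and about 75 to 150 control cells (near 13000000 square micrometres) per sample from parts without nematodes, whose cell type the labels do not name further. No uninfected plants were among the samples, and the labels do not say which giant-cell and control samples shared a plant. Each sample was amplified and hybridized to 1 Affymetrix maize array, and the values are MAS5 signals in arbitrary units of brightness. Since these are bulk samples, fewer cells of a type and less RNA per cell cannot be told apart.

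Glutamine synthetase joins ammonium to glutamate with the energy of ATP and so makes glutamine, the entry point for ammonium into organic form. Plants have a chloroplast or plastid form, GS2, and a family of cytosolic forms, GS1, which differ in where they are made and which in roots assimilate ammonium for export and local use. Asparagine synthetase passes the amide nitrogen of glutamine to aspartate, and the product, asparagine, is a main form in which plants store and move nitrogen. Glutamate dehydrogenase works in mitochondria, where it converts glutamate to 2-oxoglutarate and ammonium or the reverse. RefSeq lists gs1-2 as a synonym of gln2 (Gene ID 542400), GS1-5 of gln3 (Gene ID 542215) and GS1-1 of GLN6 (Gene ID 542520), all cytosolic names, and gs2 as a synonym of gln1 (Gene ID 542746). RefSeq also gives gln1 the synonym GLN2, and that gene is called gln1 throughout.

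Arrays of a group correlated at 0.844 to 0.934 across the 12080 probe sets bright enough to be tested, and each array correlated more, on average, with arrays of its own cell type than with the other. Median signal per array ran from 182.2 to 229.9. Some measures outside the genes moved with the cell type. The 9 probe sets for transcripts added at hybridization gave 0.67 more log2 signal in giant cells (exact permutation p = 0.005 within days, two-sided, adjusted p = 0.0067 over 4 measures). The unadjusted value is the smallest that 400 permutations can give. For 18S ribosomal RNA the rise was 0.80, with the same exact permutation p. For actin, log2 of the 3′ over the 5′ probe signal differed by -1.61, giant minus control cells (exact permutation p = 0.005), while that of GAPDH differed by -0.05 (exact permutation p = 0.80). Scaling each array to the added transcripts moved the median difference of all probe sets to -0.50, against 0.15 as deposited, and each difference below can be read against these medians. The part of these measures in the results was not tested.

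Among the 4 glutamine synthetase genes of the set, gln2 was the one with more signal in giant cells, and the other 3 genes had less. Signals of gln2 were 1250.0, 623.9 and 1677.6 in giant cells at 14 days, against 317.7, 135.9 and 164.3 in control cells at 14 days. At 21 days they were 2557.4, 907.4 and 1068.6 in giant cells, against 84.4, 137.6 and 169.9 in control cells. All 6 giant-cell arrays lay above all 6 control arrays. On the log2 scale, after an offset of 9.50 was added to each signal, gln2 was higher in giant cells by 2.45 ± 0.46 at 14 days (SE from the limma fit, 3 arrays per group) and by 3.33 ± 0.46 at 21 days, 5.46-fold and 10.1-fold. As the mean of both days the difference was 2.89 ± 0.33, the 23rd largest of the 12080.

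GLN6, a cytosolic gene by its synonym, showed the opposite pattern, with less spread than gln3 and gln1. Its signals were 2677.7, 1421.9 and 909.8 in giant cells at 14 days, against 11455, 12019.4 and 10262.9 in control cells at 14 days. At 21 days they were 3912.0, 4982.0 and 3989.7 in giant cells, against 9845.3, 14864.1 and 10708.7 in control cells. The cell types did not overlap on either day. The difference, giant minus control, was -2.88 ± 0.31 at 14 days and -1.44 ± 0.31 at 21 days on the log2 scale, 7.37-fold and 2.72-fold lower in giant cells.

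For gln3, another cytosolic gene, control arrays varied widely. Its signals were 557.8, 531.6 and 248.0 in giant cells at 14 days, against 926.6, 6084.3 and 3079.2 in control cells at 14 days. At 21 days they were 1494.5, 583.7 and 1309.8 in giant cells, against 1293.6, 3978.5 and 3187.1 in control cells. The groups were apart at 14 days and overlapped at 21 days, where the lowest control array lay below 2 giant-cell arrays. The log2 difference was -2.60 ± 0.63 at 14 days and -1.27 ± 0.63 at 21 days.

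The gene with the plastid synonym, gln1, had the deepest difference of the glutamine synthetases. Its signals were 52.6, 60.7 and 222.4 in giant cells at 14 days, against 569.1, 1288.3 and 1444.8 in control cells at 14 days. At 21 days they were 140.3, 346.2 and 189.6 in giant cells, against 1761.4, 2333.2 and 545.5 in control cells. No giant-cell array reached the lowest control array. The log2 difference was -3.36 ± 0.61 at 14 days and -2.59 ± 0.61 at 21 days, 10.3-fold and 6.01-fold lower in giant cells.

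**Figure D1:**
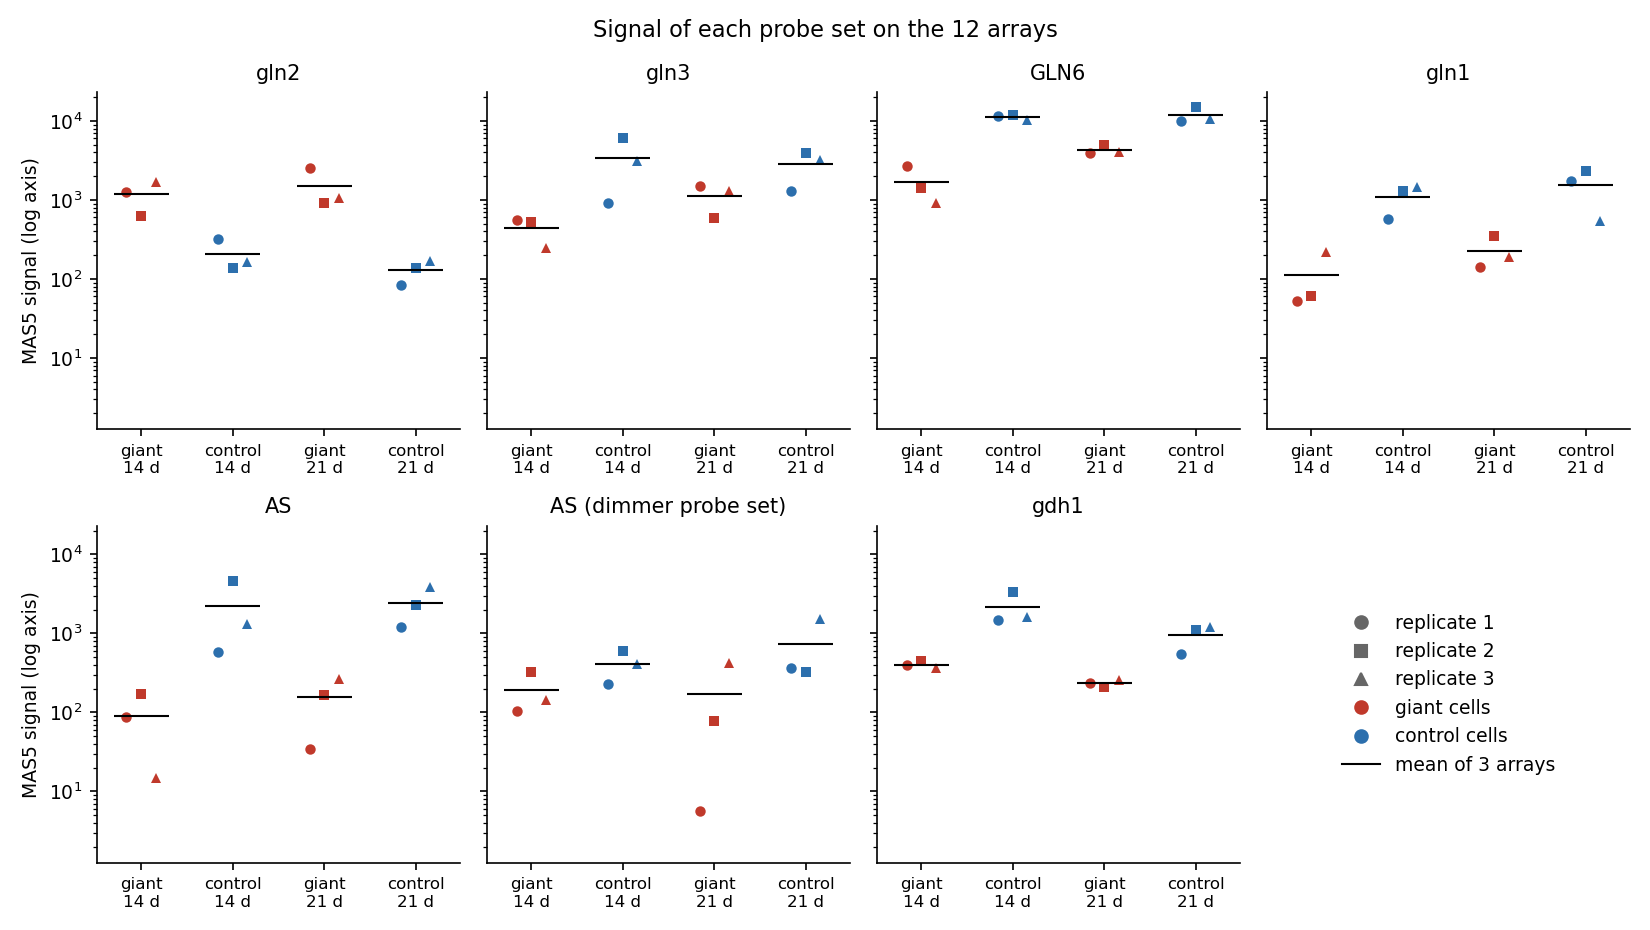
MAS5 signal (log axis) of each of the 7 probe sets on the 12 arrays, with giant cells in red, control cells in blue, a marker shape for each replicate number and a line at the mean of 3 arrays. Giant-cell points of gln2 lie above its control points, and those of GLN6, gln1, AS and gdh1 lie below theirs on both days, while the dimmer AS probe set overlaps.

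AS (Gene ID 542435) had the largest difference of the 6 genes, and the most variable signal among the arrays of a group. Its brighter probe set read 86.6, 171.3 and 14.8 in giant cells at 14 days, against 577.7, 4672.7 and 1333.5 in control cells at 14 days. At 21 days it read 34.6, 168.0 and 268.4 in giant cells, against 1219.4, 2312.0 and 3854.2 in control cells. The cell types did not overlap, and the giant-cell array with the most gln2 (2557.4, replicate 1 at 21 days) had the least AS of its group. The log2 difference was -4.37 ± 0.87 at 14 days and -4.10 ± 0.87 at 21 days, 20.6-fold and 17.2-fold lower in giant cells. Its mean over both days, -4.23 ± 0.62, was the 61st lowest of the 12080. Giant-cell signals close to the offset compress this difference, which was -4.43 with an offset of 1 and -3.67 with an offset of 50.

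The dimmer probe set of AS carries a suffix that Affymetrix gives to sets matching several transcripts of 1 gene, and it showed less of a gap. It read 105.0, 323.8 and 145.0 in giant cells at 14 days, against 232.1, 605.3 and 408.4 in control cells at 14 days. At 21 days it read 5.73, 79.0 and 428.5 in giant cells, against 365.3, 327.4 and 1545.4 in control cells. Both days had overlapping arrays, and the lowest giant-cell signal at 21 days was under the offset. The log2 difference was -1.13 ± 0.96 at 14 days and -2.79 ± 0.96 at 21 days. The 2 probe sets thus had the same sign, with mean differences of -4.23 and -1.96, 18.8-fold and 3.90-fold lower in giant cells.

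The glutamate dehydrogenase gene gdh1 (Gene ID 542220) was lower in giant cells with narrow spread there. Its signals were 394.9, 449.5 and 360.9 in giant cells at 14 days, against 1486.8, 3336.7 and 1633.5 in control cells at 14 days. At 21 days they were 233.7, 210.6 and 260.2 in giant cells, against 548.0, 1121.8 and 1200.9 in control cells. None of the 4 groups overlapped its neighbour in level: giant cells at 21 days were lowest, then those at 14 days, and both lay under control cells, of which the 14-day group was the highest. The difference between cell types was -2.30 ± 0.34 at 14 days and -1.91 ± 0.34 at 21 days on the log2 scale.

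**Figure D2:**
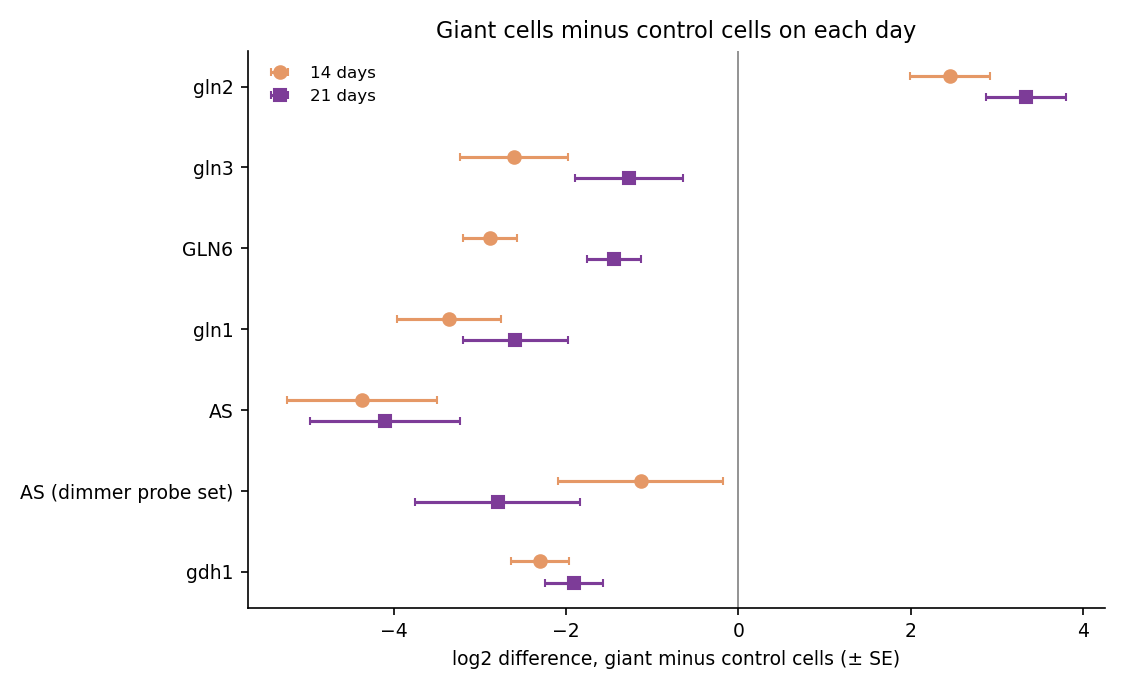
Log2 difference in signal, giant minus control cells, at 14 days (circles) and 21 days (squares) for each probe set, with standard errors from the limma fit on 3 arrays per group. gln2 stands at 2.45 and 3.33, and the other 6 probe sets lie below 0, from -1.13 to -4.37.

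Averaged over both days, all 7 probe sets passed an adjusted p of 0.05 in the limma fit, 1 higher and 6 lower in giant cells, where 42.2% of all probe sets tested passed (25.1% higher and 17.0% lower). The genes were chosen from this contrast, so nothing is read from that count. Their median log2 difference was -2.10, beside 0.15 over all probe sets tested. Arrays were apart on both days for gln2 in the higher direction, as for 13.3% of probe sets, and for GLN6, gln1, AS and gdh1 in the lower direction, as for 9.83%. With arrays scaled to the added transcripts the difference was 2.24 for gln2 and ran from -2.58 for the dimmer AS probe set to -4.84 for AS, so no sign turned.

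**Figure D3:**
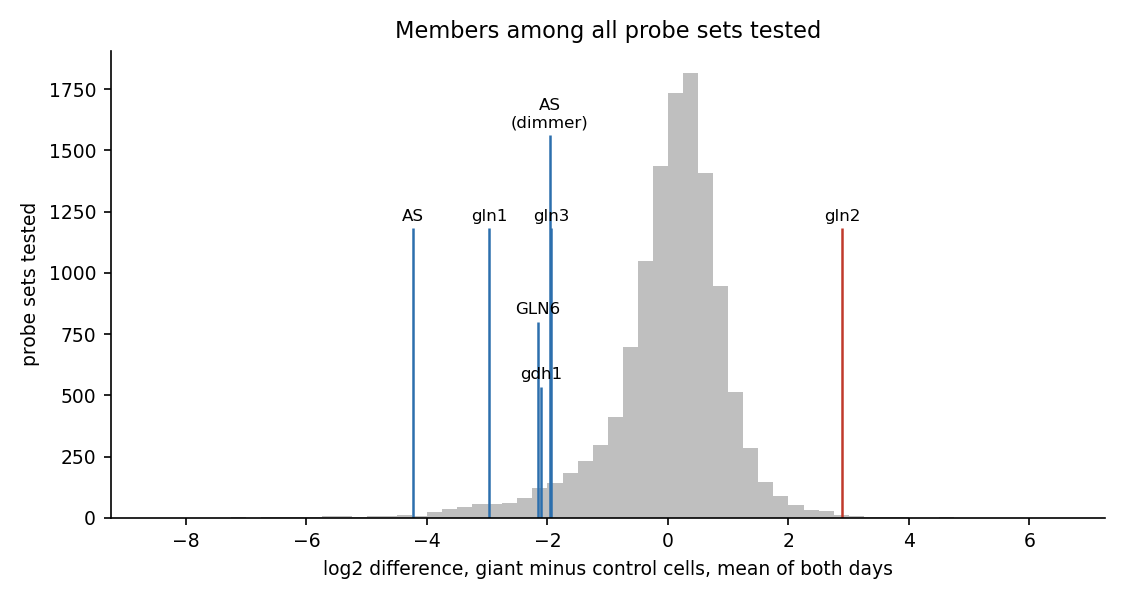
Histogram of the log2 difference between giant and control cells, mean of both days, over the 12080 probe sets tested, with vertical lines at the 7 members (red above 0, blue below). gln2 (2.89) lies in the upper tail and the other members between -1.94 and -4.23, while the median of all is 0.15.

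The contrast between gln2 and its relatives was taken within each array, as gln2 minus the mean of gln1, gln3 and GLN6 on the log2 scale, and compared between groups, since brightness of different probe sets cannot be compared directly. Centred on its mean over the 12 arrays, this value was 3.14, 2.41 and 3.82 in giant cells at 14 days, against -0.82, -3.30 and -2.70 in control cells at 14 days. At 21 days it was 3.09, 1.52 and 1.76 in giant cells, against -3.24, -3.47 and -2.22 in control cells. Every giant-cell array lay above 0 and every control array below it. The difference between cell types was 5.40 ± 0.74 at 14 days and 5.10 ± 0.74 at 21 days, with a mean of 5.25 ± 0.53 (SE from an SD of 0.91 between arrays of a group), a 38.0-fold relative difference. It is given without a test, because gln2 was picked for its rise.

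Taken 1 gene at a time, the difference of gln2 exceeded that of gln1 by 5.86, that of GLN6 by 5.05 and that of gln3 by 4.83 on the log2 scale, as the mean of both days. In each of the 3 pairs the lowest giant-cell array was above the highest control array. Between days the contrast of gln2 to the others differed by -1.001 ± 0.74 in giant cells (21 minus 14 days, exact permutation p = 0.2, two-sided) and by -0.71 ± 0.74 in control cells (exact permutation p = 0.6). With 3 arrays against 3 this test cannot give a p below 0.1.

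**Figure D4:**
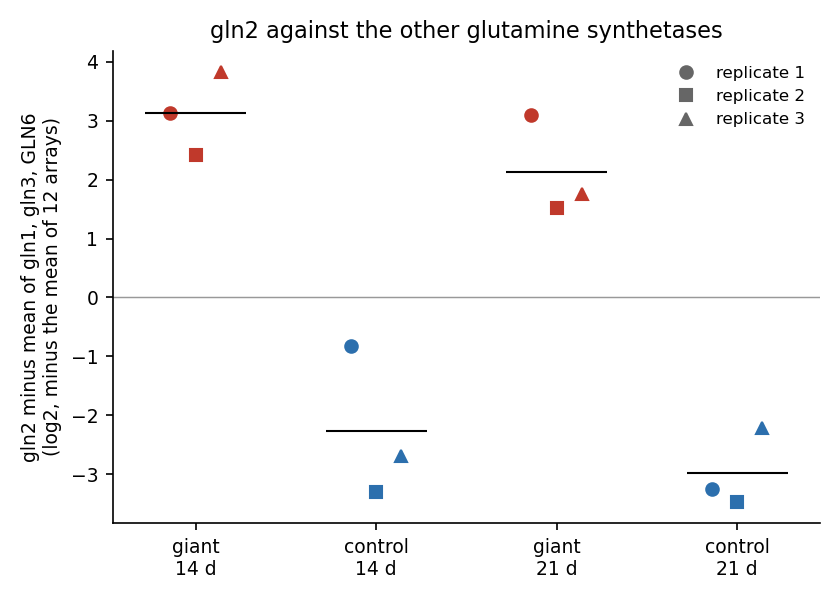
Log2 signal of gln2 minus the mean of gln1, gln3 and GLN6 on each array, centred on the mean of 12 arrays, by group and replicate, with a line at each group's mean. Giant-cell arrays range from 1.52 to 3.82 and control arrays from -3.47 to -0.82.

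Another glutamine synthetase gene on the array, gln5 (Gene ID 542401, synonym gs1-4), was outside the set, and its cell types overlapped on both days. Its signal averaged 1587 ± 407 in giant cells at 14 days, 2217 ± 484 in giant cells at 21 days, 1807 ± 537 in control cells at 14 days and 1285 ± 636 in control cells at 21 days (SD, n = 3). Its mean was thus lower in giant than in control cells at 14 days and higher at 21 days. That change in the log2 difference was 1.05 ± 0.49 (interaction, limma adjusted p = 0.72). As the mean of both days, the log2 difference of 0.35 ± 0.24 between cell types did not pass (limma adjusted p = 0.26). It was -0.32 with arrays scaled to the added transcripts. With gln5 counted among the others, a choice made after seeing the data, the difference between gln2 and the rest was 4.57.

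The second question was whether the enzymes changed with the age of the giant cells. No probe set of the 7 passed an adjusted p of 0.05 between 21 and 14 days in giant cells, where 0.637% of those tested passed (0.273% higher and 0.364% lower), 77 probe sets in all. That total was 4 without giant cells replicate 1 at 21 days and 205 without control cells replicate 1 at 14 days. GLN6 came closest: it was higher at 21 days by 1.49 ± 0.31 on the log2 scale, 2.81-fold (limma adjusted p = 0.053, unadjusted p = 0.00034), with all 3 arrays at 21 days above all 3 at 14 days. Its adjusted p ran from 0.0066, without giant cells replicate 1 at 14 days, to 0.19 with arrays scaled to the added transcripts.

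The other glutamine synthetases also had positive values in giant cells between these days, none past the threshold. They were 1.299 ± 0.63 for gln3 (limma adjusted p = 0.30), whose arrays did not overlap, 1.13 ± 0.61 for gln1 (0.36) and 0.30 ± 0.46 for gln2 (0.78). AS stood at 0.79 ± 0.87 (0.68), and its dimmer probe set at -1.11 ± 0.96 (0.59). For gdh1 the value was -0.75 ± 0.34 (0.28), and its 3 arrays at 21 days lay below all 3 at 14 days. Arrays of giant cells were thus apart between days for 3 of the 7 probe sets, 2 higher and 1 lower at 21 days, and this held for 25.8% of all probe sets tested (11.1% higher and 14.7% lower). An unadjusted p under 0.05 was reached by GLN6 and gdh1, 2 of the 7, and by 17.7% of all.

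In control cells none of the 7 passed between days, and 0.0248% of all probe sets did, 3 in number. The largest value was that of gdh1, -1.14 ± 0.34 (limma adjusted p = 0.34, unadjusted p = 0.0052), with all 3 arrays at 21 days below all 3 at 14 days, as for 7.49% of probe sets. It alone of the 7 had an unadjusted p under 0.05 there, as did 9.85% of all. The signal of gdh1 was thus lower at 21 days in both cell types, by values that did not pass. GLN6 stood at 0.05 ± 0.31 and gln3 at -0.03 ± 0.63 in control cells, and gln2 at -0.58 ± 0.46.

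**Figure D5:**
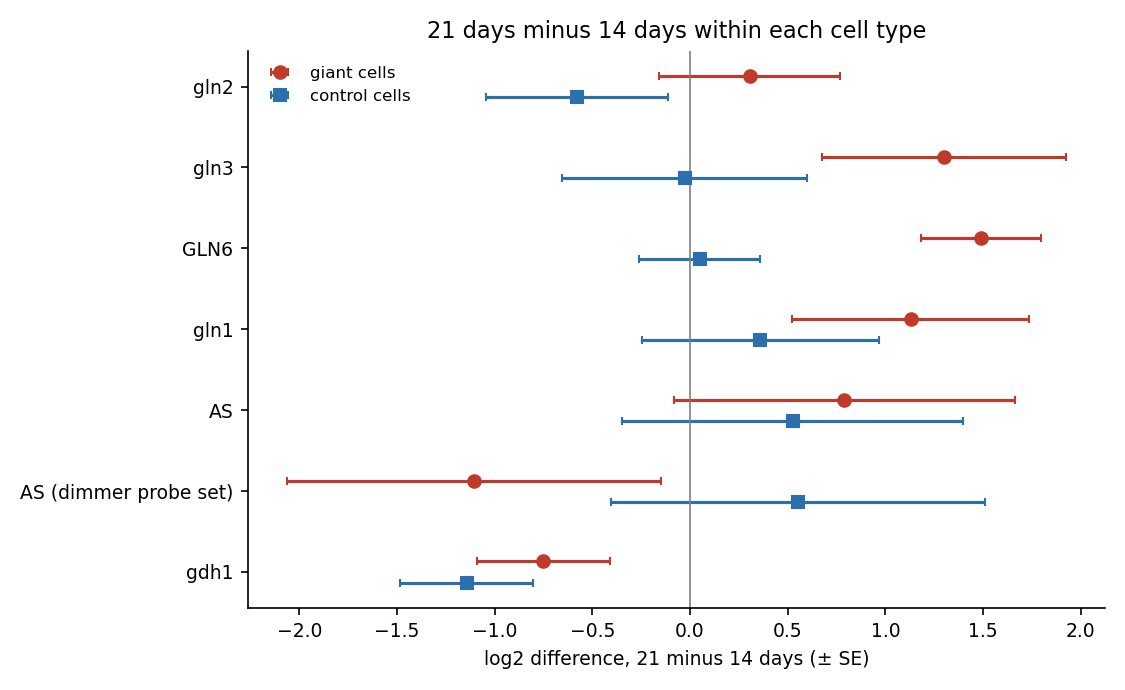
Log2 difference in signal, 21 minus 14 days, within giant cells (red circles) and within control cells (blue squares), with standard errors from the limma fit on 3 arrays per group. GLN6 stands at 1.49 in giant cells and at 0.05 in control cells, and gdh1 lies below 0 in both.

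Whether the cell types differed by another amount at 21 than at 14 days was tested as an interaction, and none of the 7 passed, nor did any of the 12080 (0%), of which 6.95% had an unadjusted p under 0.05. GLN6 had the smallest p of the 7, with a change of 1.44 ± 0.44 in the difference (unadjusted p = 0.0059, limma adjusted p = 0.51). The values were 1.33 ± 0.88 for gln3, 0.88 ± 0.66 for gln2, 0.77 ± 0.86 for gln1, 0.39 ± 0.48 for gdh1, 0.26 ± 1.24 for AS and -1.66 ± 1.35 for its dimmer probe set.

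Levels within a group varied more for some members than for most probe sets. The pooled SD of log2 signal was 1.33 for AS and 1.46 for its dimmer probe set, 0.94 for gln3 and 0.90 for gln1, beside a median of 0.39 over all probe sets tested. For gln2 it was 0.67, and for gdh1 and GLN6 0.46 and 0.43. Among control cells at 14 days, replicate 1 had the lowest AS, gln3, gln1 and gdh1 signals and the highest gln2 signal, while replicate 2 had the highest AS, gln3 and gdh1. Without that replicate 1 the mean differences between cell types kept their signs, as they did without any other array.

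Upstream of these enzymes, nitrate is taken up, reduced to nitrite by nitrate reductase and then to ammonium by nitrite reductase, which in roots draws electrons from ferredoxin. A list of other genes of nitrogen assimilation and amino acid synthesis matched 19 named genes, of which 12 were tested. The list was chosen with earlier results of these data known. Its calls between the cell types, and their adjusted p-values, are therefore a description and no independent support. Among the 12, 2 rose in giant cells, 3 fell and 7 missed the threshold. The share called in either direction was near that over all probe sets tested (42.2% called, 25.1% higher and 17.0% lower). The median log2 difference of the 12 was -0.55, beside 0.15 over all probe sets. The 19 include 4 genes matched through a name of another kind of gene, of which 1 was tested and did not pass. Without these 4 the median was -0.40. The count of 5 was 8 without control cells replicate 1 at 14 days, and 3 without control cells replicate 2 at 14 days or replicate 1 or 2 at 21 days.

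The 3 genes that fell were nnr1, nrt2 and nir. The nitrate reductase gene nnr1 fell by 4.47 on the log2 scale (± 0.59, limma adjusted p = 0.00014), and its signal averaged 49.1 and 156.3 in giant cells, against 1011.9 and 2679.2 in control cells, at 14 and 21 days. The nitrate transporter gene nrt2 fell by 3.34 (± 0.67, limma adjusted p = 0.002). The nitrite reductase gene nir fell by 1.36 (± 0.46, limma adjusted p = 0.031, up to 0.079 without single arrays), and its dimmer probe set stood at -0.86 (adjusted p = 0.16). All 3 of these falls passed with arrays scaled to the added transcripts. Arrays of the cell types were apart on both days for nnr1, as for 9.83% of probe sets in the lower direction. Those of nrt2 were apart at 14 days and overlapped at 21 days, and those of nir overlapped on both days.

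The 2 genes that rose were fdx3 and ak1, of which ak1 was matched by name only, with no description in the annotation used here to show which enzyme it encodes. The root ferredoxin gene fdx3 rose by 0.70 ± 0.22 (limma adjusted p = 0.022, up to 0.06 without single arrays), and ak1 rose by 0.78 ± 0.20 (adjusted p = 0.0079). With arrays scaled to the added transcripts they stood at 0.03 (adjusted p = 0.93) and 0.16 (adjusted p = 0.66). A dimmer probe set of fdx3 stood at 0.65 (adjusted p = 0.082). The lysine-catabolic gene lkrsdh1 (0.58, adjusted p = 0.22), the phosphoenolpyruvate carboxylase gene pep4 (0.11, 0.60), sum1 (-0.70, 0.30), the ferredoxin gene fdx6 (-0.40, 0.49) and the ferredoxin reductase gene fnr1 (-1.07, 0.12) did not pass. Dimmer probe sets of fnr1 stood at -1.36, -0.55 and -0.40 (limma adjusted p = 0.086, 0.28 and 0.62). With arrays scaled to the added transcripts sum1 (-1.37, adjusted p = 0.049) and the brightest probe set of fnr1 (-1.74, adjusted p = 0.015) passed as lower. The list then had 0 genes higher and 5 lower. Under that scaling the median of all probe sets was -0.50, and most calls over all of them were lower too.

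Likeness to gln2 and AS was measured as the root mean square difference of log2 signal over the 12 arrays, after each probe set's own mean was taken off, among 789 other named genes. Nearest to gln2 were hdr10 (0.71), LOC100101528 (0.76), plr354a (synonym prcw1, 0.76), the starch synthase gene ss1 (0.81) and LOC542318 (0.84), where the median gene lay at 1.64. Nearest to the brighter AS probe set were the glutathione transferase gene gst23 (0.89), MRP1 (0.95), the nitrate reductase gene NNR1 (1.06), the aquaporin gene TIP2-1 (1.11) and the oxophytodienoate reductase gene opr1 (1.13), where the median gene lay at 2.42. The 12 arrays are of 2 cell types, so genes with a like difference between them score as near.

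Genes listed as markers of other tissues are set beside the members. They are a description, since these lists were chosen with earlier results of these data known. Between giant and control cells, 25.1% of all probe sets tested were called higher and 17.0% lower. Of 4 xylem markers tested 3 fell, and lac1 had the other sign and did not pass (0.40, limma adjusted p = 0.28). The summed signal of the 4 ran from 307.6 to 1016.9 in giant cells, against 715.2 to 3021.5 in control cells. Of 4 genes listed for root meristem and cap 3 were on the array, where lg3 and rs2 rose and kn1 was too dim to test. They were put under that heading by name, and no source used here shows that they mark root meristem or cap. The 3 genes summed to 186.1 to 486.6 in giant cells, against 60.4 to 152.7 in control cells. With arrays scaled to the added transcripts lg3 still passed and rs2 did not (limma adjusted p = 0.051). Of 2 phloem genes sus1 fell and sut1 was too dim to test, with a sum of 1984.2 to 3852.3 in giant cells, against 4578.1 to 8079.7 in control cells. Of 2 genes for root hair and epidermis rbohb rose (0.10, adjusted p = 0.77, after that scaling) and expb5 was not tested (mean 1.55 and 1.48 in giant cells, against 82.6 and 99.0 in control cells, at 14 and 21 days), with a sum of 854.3 to 1466.7 in giant cells, against 644.4 to 1069.5 in control cells. The 3 photosynthetic genes summed to 142.4 to 357.1 in giant cells, against 199.6 to 372.1 in control cells. Of these ssu1 and pep1 were too dim to test, and the brightest probe set of c4ppdkzm1 did not pass (-0.26, limma adjusted p = 0.42). It was lower after that scaling (-0.90, adjusted p = 0.035), which put the median of all probe sets at -0.50. Dimmer tested probe sets of c4ppdkzm1 had the other sign before scaling, at 0.44, 0.44 and 0.36 (limma adjusted p = 0.79, 0.74 and 0.81). The lists held no marker of giant cells, and the part of other tissues in the members' differences was not tested.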

How the data were processed

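The deposited values are intensity: MAS5 signals on a linear scale, computed by the authors with Affymetrix Expression Console per the submitters' processing notes. Trimmed means of 500.1 to 500.2 on every array show scaling to a common level. The sources used here do not give the software version. Of 17734 probe sets, 113 manufacturer's controls were left out.

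The 10th percentile of signal, 9.50, was added as an offset before log2. Probe sets above the 40th percentile of their own array on at least 3 arrays were tested (12080), and all 7 member probe sets passed. A mean per group was fitted with limma 3.58.1 in R 4.3.3 (lmFit, eBayes with a variance trend), p-values were two-sided and adjusted by Benjamini-Hochberg over all probe sets tested, and the fit was tested on simulated data. Probe sets were named from the platform annotation and RefSeq (B73 assembly, names only): 1452 name 1 gene, and 1060 of 1108 genes matched. Listed genes with several probe sets were represented by the brightest on average. Same-numbered replicates of giant and control cells correlated above 0.1 in 2 of 6 pairs, so replicate numbers were not treated as pairs. Members, gene lists and alternatives were chosen with earlier results of these data known: every member is described, listed genes are named where called, and for likeness the 5 nearest genes. Nothing ties replicates to separate plants beyond their label as biological replicates.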

Additional observations from a re-analysis of the deposited data

How the results depend on the processing

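The signs of the members' mean differences between giant and control cells held in all 143 recomputed values, and the difference of gln2 to the other glutamine synthetases stayed between 4.57 and 5.61. The number of probe sets called between cell types was 2980 with a signal above the 40th percentile required on all 12 arrays, against 5092, and otherwise 4243 to 5688. With scaling to the added transcripts the calls were 474 higher and 4755 lower, against 3038 higher and 2054 lower. That filter leaves out the probe sets of gln2, gln1 and AS. Between days in giant cells the 77 calls became 42 with no filter, 139 with the strict filter, 118 with quantile normalization, 20 with scaling to the added transcripts, and 48 without a variance trend or with the replicate number as a block, and 4 to 205 without single arrays. In control cells the 3 calls became 1 with no filter, without a variance trend and with the replicate block. They became 0 with scaling to the added transcripts and 0 to 2 without single arrays, and the most under any setting was 4. The interaction had 0 calls, and 9 without giant cells replicate 2 at 21 days, within a range of 0 to 9. The nitrogen list had 2 calls with the strict filter and 3 to 8 without single arrays. GLN6 passed between days in giant cells with an offset of 50 (adjusted p = 0.046) and with the strict filter (0.033), and not with the replicate block (0.058). With the replicate number as a block, 5005 probe sets were called between cell types, and 4742 with the number within a day. Values between days that turned sign were all far from the threshold: gln3 in control cells was 0.060 with scaling to the added transcripts. Without single arrays, the range in control cells was -0.77 to 0.59 for gln3, -0.13 to 0.17 for GLN6, -0.057 to 0.98 for gln1, -0.17 to 1.33 for AS and -0.16 to 0.95 for its dimmer probe set. In giant cells it was -0.15 to 0.61 for gln2, -0.024 to 1.57 for AS and -2.30 to 0.12 for its dimmer probe set, and the interaction of AS ran from -0.55 to 1.04. The cause of these shifts was not tested.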
